A study of Rattus norvegicus with 9 samples.

Results

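The miR-7 family was followed in cultured rat heart muscle cells through its rat members miR-7a-5p and miR-7b, listed as rno-miR-7a-5p and rno-miR-7b, which are 2 of the 1422 miRNA entries in the deposited table. They were picked by name because their scaled levels were known to be higher with both Yap viruses than with the control virus. Their differences from the control virus are therefore given as a description, without a test. Small RNA was sequenced from primary neonatal rat cardiomyocytes, prepared by enzyme digestion of hearts of newborn Sprague Dawley rats and kept in normal glucose. The 9 libraries, all taken 48 h after virus, fall into 3 groups of 3: Ad-Yap WT, an adenovirus used to overexpress Yap (Yap1) in otherwise unmodified cells, Ad-Yap shRNA, an adenovirus used to knock Yap1 down, and Ad-GFP, the control adenovirus carrying green fluorescent protein in cells labelled WT. All groups were exposed to an adenovirus, no untreated cells and no virus with a non-targeting shRNA are among them, and the labels do not name the promoters that drive the inserts. The table holds no mRNA, so the level of Yap could not be checked in any group. Nothing in the labels says that replicates came from separate cell isolations. The p-values therefore set differences between groups only against the scatter of these libraries, which may be technical scatter.

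miR-7 is an ancient miRNA best known from neurons and neuroendocrine cells, where it is abundant. In human and mouse cells its level is set mainly after transcription: the precursor miR-7-1 lies in an intron of the widely expressed gene encoding the RNA binding protein hnRNP K, and RNA binding proteins hold its processing back outside neural cells. The mature form is bound by the circular RNA Cdr1as and directed to degradation by the long noncoding RNA Cyrano in the mouse brain. In human epithelial cells the Hippo pathway was linked to miRNA maturation when nuclear Yap was found to bind the RNA helicase DDX17, a helper of the enzyme complex (Microprocessor) that cuts primary miRNA transcripts. In the heart miR-7 is not among the classic muscle miRNAs.

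The mature sequences are shown because a single base separates the members, so that a read with 1 wrong base can pass from one to the other. Both matched RefSeq by name (build GRCr8), are 23 bases long and agree at 22 positions. The seed, bases 2 to 8, is in capitals.
miR-7a-5p: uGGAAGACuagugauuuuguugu
miR-7b: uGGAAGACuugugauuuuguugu
Counted from the 5′ end, miR-7b carries the substitution A10U relative to miR-7a-5p, outside the seed. No other name among the 693 mature rat miRNAs of the RefSeq table shares the seed, whose complement in a target is GUCUUCC. The sources used here do not say how reads close to both members were assigned.

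The family comes from 3 hairpins, shown with the mature arm in capitals because miR-7a-5p reads cannot be traced to either of its 2 hairpins. RefSeq on GRCr8 places them, all on the plus strand, at chr17:6278692-6278788 for Mir7-1, chr1:142215800-142215894 for the miR-7a-2 hairpin (symbol Mir8) and chr9:1167436-1167545 for the miR-7b hairpin (symbol Mir9).
Mir7-1: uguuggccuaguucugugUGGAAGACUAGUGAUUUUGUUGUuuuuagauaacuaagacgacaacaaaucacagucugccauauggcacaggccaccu
miR-7a-2 hairpin: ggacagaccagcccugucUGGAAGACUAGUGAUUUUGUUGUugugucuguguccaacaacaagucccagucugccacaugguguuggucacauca
miR-7b hairpin: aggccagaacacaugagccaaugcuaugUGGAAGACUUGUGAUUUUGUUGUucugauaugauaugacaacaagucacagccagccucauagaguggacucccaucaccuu
Mir7-1 lies inside Hnrnpk on the same strand, the miR-7a-2 hairpin inside an uncharacterised lncRNA gene and the miR-7b hairpin inside the pseudogene Rpl35l3. The letters CAUC, the core of a motif reported for DDX17 on human primary transcripts, were searched on the transcribed strand. They occurred once in the miR-7a-2 hairpin, from base 91, once in the miR-7b hairpin, from base 102, and not in that of Mir7-1. Among the 109 rat hairpins of 95 to 110 bases, 29.4% hold these letters, and the transcript beyond the hairpins was not searched.

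The listed miRNAs added up to between 1482367 and 3599483 reads per library, and made up 8.76 to 17.6% of the deposited library total with Ad-Yap WT, 7.22 to 9.87% with Ad-Yap shRNA and 24.6 to 26.2% with Ad-GFP. A level can therefore be stated per miRNA read or per read of the whole library, and the scales differ by the same factor for every miRNA of a library. CPM below is reads per 1e+06 miRNA reads after TMM scaling, which assumes that most miRNAs keep their proportions. RPM is the authors' deposited value per 1e+06 of a library total whose content is not stated. The muscle origin of the RNA was plain from the 5 cardiomyocyte miRNAs (miR-1-3p, miR-133a-3p, miR-208a-3p, miR-208b-3p and miR-499-5p), which summed to 46213 to 54951 CPM with Ad-Yap WT, 87253 to 103959 CPM with Ad-Yap shRNA and 46328 to 49978 CPM with Ad-GFP. In such bulk RNA, fewer cells of a type and less RNA per cell cannot be told apart.

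miR-7a-5p was a well expressed miRNA of these cells. The raw counts of rno-miR-7a-5p were 13919, 9140 and 10149 reads in Ad-Yap WT replicates 1 to 3, 14621, 9798 and 9800 reads in Ad-Yap shRNA replicates 1 to 3, and 8915, 7568 and 7925 reads in Ad-GFP replicates 1 to 3. Every Yap library thus held more miR-7a-5p reads than every Ad-GFP library, before any scaling and with fewer miRNA reads in all. The Yap libraries also had the larger deposited totals, 16.72 to 22.05 M against 13.75 to 14.33 M with Ad-GFP (M = 1e+06 reads). On that measure of depth more raw reads would be found at an equal level. Among the entries of a library it ranked 48 to 52 by count with Ad-Yap WT, 37 to 38 with Ad-Yap shRNA and 75 to 77 with Ad-GFP. As a share of all miRNA reads it made up 0.472, 0.473 and 0.472% with Ad-Yap WT, 0.698, 0.607 and 0.661% with Ad-Yap shRNA, and 0.248, 0.214 and 0.227% with Ad-GFP. The Ad-Yap WT share was nearly the same in all 3 libraries although their miRNA reads ranged from 1.93 to 2.95 M, and the groups did not overlap on this scale. How many of all miRNAs separate in raw counts or in this share was not counted.

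**Figure D1:**
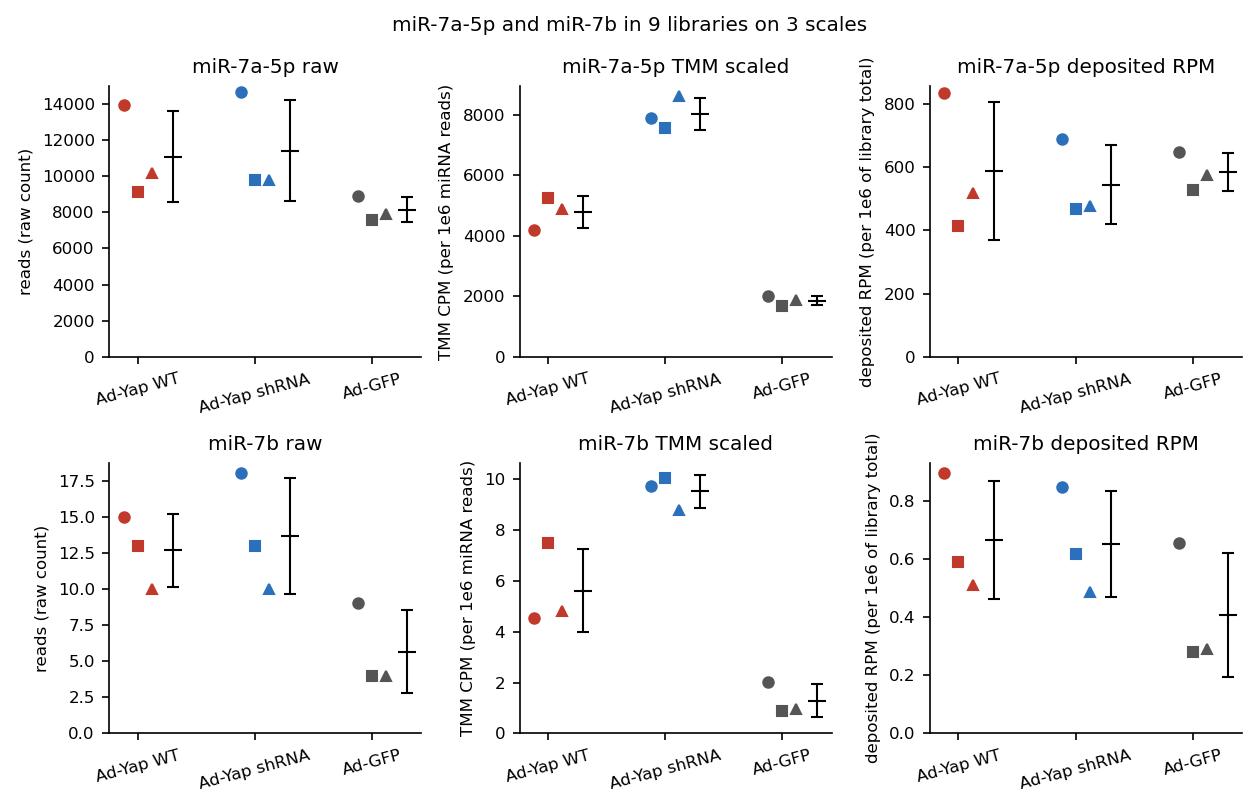
Each point is 1 library (circle, square and triangle for replicates 1, 2 and 3) of Ad-Yap WT, Ad-Yap shRNA or Ad-GFP; the rows are miR-7a-5p and miR-7b, the columns raw reads, TMM CPM and deposited RPM, and the bars show mean ± SD (n = 3). The groups of miR-7a-5p separate in CPM, at 4789, 8028 and 1861 on average in that order, and overlap in RPM.

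After TMM scaling miR-7a-5p stood at 4201, 5264 and 4902 CPM with Ad-Yap WT, at 7894, 7581 and 8610 CPM with Ad-Yap shRNA and at 1698 to 2009 CPM with Ad-GFP. The means were 4789 ± 540 CPM with Ad-Yap WT and 1861 ± 156 CPM with Ad-GFP (SD, n = 3 each), a log2 fold change of 1.36 (edgeR SE 0.11), or 2.57-fold. With Ad-Yap shRNA the mean was 8028 ± 528 CPM (SD, n = 3), a log2 fold change of 2.11 over Ad-GFP (SE 0.12), or 4.31-fold. The 3 libraries of each Yap group lay above all 3 Ad-GFP libraries on this scale. That was also so for 25% and 30.9% of all 579 tested miRNAs in the same comparisons, and edgeR called 25% of them with Ad-Yap WT and 41.8% with Ad-Yap shRNA, in either direction (adjusted threshold 0.05). By log2 fold change miR-7a-5p ranked 49 from the top of 579 with Ad-Yap WT, between miR-34b-5p (1.37) and miR-466b-3p (1.35) and a predicted entry on either side. With Ad-Yap shRNA it ranked 33, just above miR-146a-3p (2.11) and miR-299a-5p (2.08) and just below predicted entries at 2.12 and 2.24. Both comparisons share the Ad-GFP libraries.

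On the deposited scale the same reads gave no such separation. miR-7a-5p had 832, 414 and 518 RPM with Ad-Yap WT, 689, 466 and 477 RPM with Ad-Yap shRNA, and 648, 528 and 574 RPM with Ad-GFP. The groups overlapped, with means of 588 ± 218, 544 ± 126 and 583 ± 60.8 RPM in that order (SD, n = 3 each). Replicate 1 was the highest library in each group. With edgeR and the deposited totals, the log2 fold changes were 0.012 with Ad-Yap WT and -0.10 with Ad-Yap shRNA (SE 0.36 each). The median of all 579 tested miRNAs moved on that scale to -1.26 and -2.15, against 0.030 and 0.039 after TMM scaling. Relative to the median miRNA, miR-7a-5p was therefore higher by 1.27 and 2.05 with the deposited totals and by 1.33 and 2.07 with TMM, and its rank was 49 and 34. Per read of the whole library its fold changes were small beside their SE of 0.36. On that scale edgeR called 55.6% (Ad-Yap WT) and 85.1% (Ad-Yap shRNA) of the tested miRNAs, 53.9% and 82.7% as lower. Without Ad-Yap WT replicate 1, whose deposited total was the smallest of the Yap libraries at 16.7 M and whose miRNA share was the highest at 17.6%, the log2 ratio of mean RPM over Ad-GFP was -0.32. Without Ad-Yap shRNA replicate 1 the ratio for that group was -0.31.

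**Figure D2:**
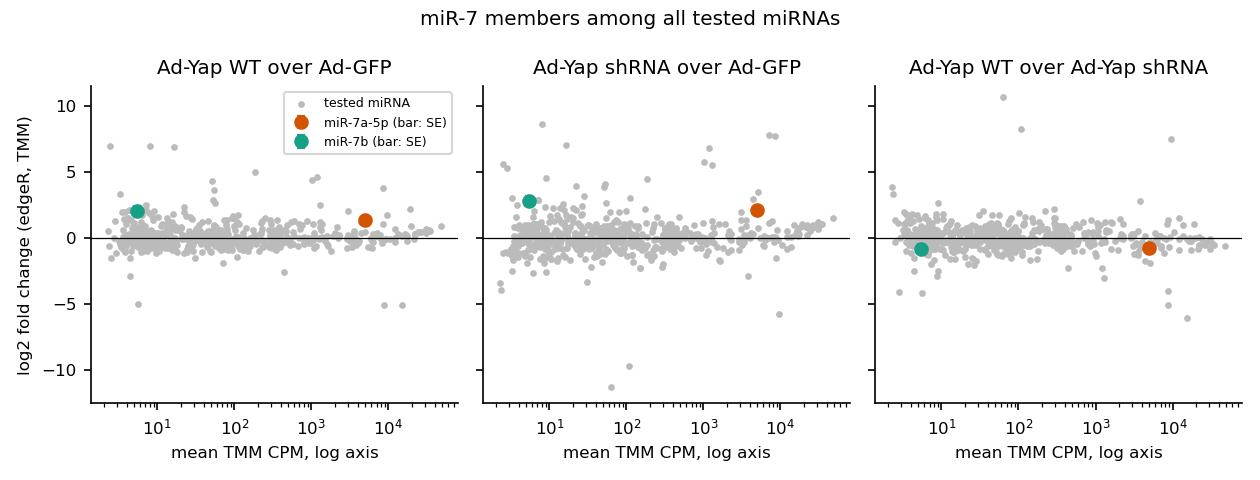
Each grey point is a tested miRNA (n = 579), with its mean TMM CPM on a log axis and its edgeR log2 fold change in 3 comparisons; the coloured points with SE bars are miR-7a-5p and miR-7b. Both members lie above most miRNAs against Ad-GFP, and below most of them where Ad-Yap WT is set over Ad-Yap shRNA.

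The direct comparison of the Yap manipulations was not used in choosing the members. It sets an overexpression virus against an shRNA virus. With no Yap level measured, it cannot show whether miR-7 followed the level of Yap. miR-7a-5p averaged 4789 ± 540 CPM with Ad-Yap WT and 8028 ± 528 CPM with Ad-Yap shRNA (SD, n = 3 each). Its log2 fold change was -0.75 (edgeR SE 0.11, adjusted p = 0.00254), with all 3 Ad-Yap WT libraries below all 3 Ad-Yap shRNA libraries. Of the tested miRNAs, 28.5% were called in this comparison, 14.3% of the total as lower and 14.2% as higher, and 23% had Ad-Yap WT libraries that all lay lower. This call was tied to scaling among the miRNAs: with the deposited totals the log2 fold change was 0.11 (edgeR adjusted p = 0.816), where the median miRNA stood at 0.85, against -0.043 with TMM. The distance of miR-7a-5p below that median was -0.70 with TMM and -0.74 with the deposited totals.

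miR-7a-5p was also set against the reads of the 5 cardiomyocyte miRNAs in the same library, a ratio that needs no library total and that was added after the data were seen. It reached 9.09, 9.58 and 9.02 reads per 100 cardiomyocyte miRNA reads with Ad-Yap WT, 9.05, 8.51 and 8.28 with Ad-Yap shRNA, and 4.34, 3.57 and 3.75 with Ad-GFP. Both Yap groups lay above Ad-GFP, by log2 fold changes of 1.25 and 1.15 with edgeR scaled to those reads, and the Yap groups overlapped. In these comparisons 91.5% and 94.3% of all tested miRNAs had a lower fold change than miR-7a-5p. How many of them separate from Ad-GFP on this scale was not counted. Between Ad-Yap WT and Ad-Yap shRNA the log2 fold change on this scale was 0.10 (SE 0.10, edgeR adjusted p = 0.42). The median of all tested miRNAs stood there at 0.80, and 15.5% of them lay below miR-7a-5p. Against Ad-GFP the medians on this scale were -0.069 with Ad-Yap WT and -0.90 with Ad-Yap shRNA. The cardiomyocyte list itself differed between the groups after TMM scaling: 3 of its 5 members were called lower with Ad-Yap WT than with Ad-Yap shRNA and 0 higher, with a median log2 fold change of -0.84, beside -0.043 over all tested miRNAs, of which 14.3% were called lower. Against Ad-GFP, 0 of the 5 were called higher and 1 lower with Ad-Yap WT, beside 15.4% and 9.67% of all tested miRNAs. With Ad-Yap shRNA 3 were called higher and 0 lower, beside 24% and 17.8% of all. With the deposited totals the list's medians over Ad-GFP were -1.32 and -1.65, beside -1.26 and -2.15 over all. The part of the cardiomyocyte list in the difference in miR-7a-5p was not tested.

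**Figure D3:**
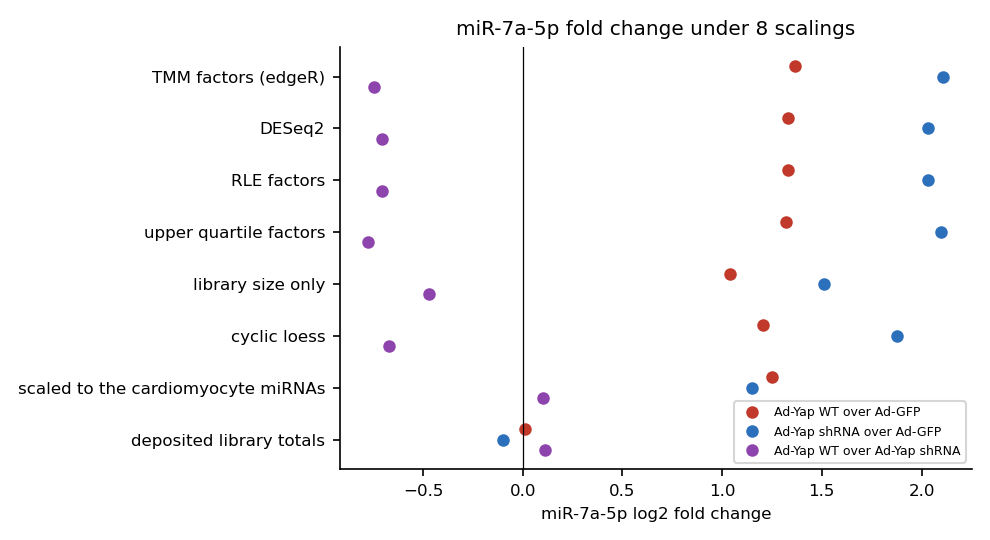
Log2 fold changes of miR-7a-5p under 8 ways of scaling the libraries, for Ad-Yap WT over Ad-GFP, Ad-Yap shRNA over Ad-GFP and Ad-Yap WT over Ad-Yap shRNA. The last comparison is negative from TMM to cyclic loess and 0.10 and 0.11 on the bottom rows, where libraries are scaled to cardiomyocyte miRNAs or to the deposited totals.

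Libraries of a group differed in depth, and the reads of miR-7a-5p followed it closely in the Ad-Yap WT group. Between Ad-Yap WT replicates 1 and 2, miRNA reads differed by 1.53-fold and miR-7a-5p reads by 1.52-fold. Between replicates 1 and 3 of that group both differed by 1.37-fold. In the Ad-Yap shRNA group, replicate 1 had 1.41-fold the miRNA reads of replicate 3 and 1.49-fold the miR-7a-5p reads. On the log2 scale miR-7a-5p thus took up 99.4, 99.7 and 116% of the depth difference in these 3 pairs, which are those over 1.3-fold apart. Depth was followed less closely in the Ad-Yap shRNA group. Its replicates 1, 2 and 3 had 2.095, 1.615 and 1.482 M miRNA reads and 14621, 9798 and 9800 miR-7a-5p reads. miR-22-3p, the most abundant entry, differed by 1.06-, 1.03- and 1.08-fold in the same pairs, and the median miRNA by 1.92-, 1.62- and 1.59-fold, more than miR-7a-5p in each. The deposited totals ran otherwise, at 0.758-, 0.853- and 1.03-fold for the same pairs.

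**Figure D4:**
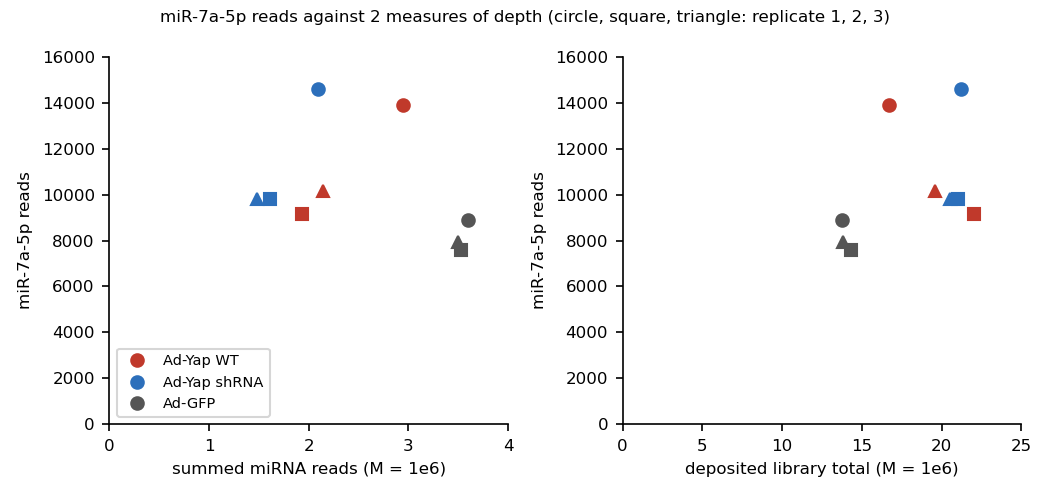
Raw reads of miR-7a-5p in each library against the summed miRNA reads (left) and the deposited library total (right), both in M reads; colours are Ad-Yap WT, Ad-Yap shRNA and Ad-GFP, and symbols the replicate. Within the Yap groups the libraries with more miRNA reads tend to hold more miR-7a-5p reads. The Ad-GFP libraries hold the fewest at 7568 to 8915, with the most miRNA reads and the smallest deposited totals.

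miR-7b was close to the limit of detection. For rno-miR-7b there were 15, 13 and 10 reads with Ad-Yap WT, 18, 13 and 10 reads with Ad-Yap shRNA, and 9, 4 and 4 reads with Ad-GFP. In TMM CPM the means were 5.62 ± 1.6 with Ad-Yap WT, 9.52 ± 0.66 with Ad-Yap shRNA and 1.29 ± 0.64 with Ad-GFP (SD, n = 3 each), and each Yap group lay above Ad-GFP. Its log2 fold changes were 2.05 (edgeR SE 0.36) and 2.84 (SE 0.36), ranks 21 and 22 of 579, next to miR-146a-5p (2.08) in the first of these. The counts of Ad-GFP on which these rest are under 10 reads in each library, and without Ad-GFP replicate 1 they moved to 2.52 and 3.29. Both members passed the filter on low counts. miR-7b, at under 3 CPM in the control, passed through the Yap groups, where it is higher, so its fold changes over Ad-GFP are a description and support nothing. In deposited RPM it had 0.897, 0.589 and 0.51 with Ad-Yap WT, 0.849, 0.618 and 0.487 with Ad-Yap shRNA, and 0.655, 0.279 and 0.29 with Ad-GFP, so the groups overlapped. Between the Yap manipulations its log2 fold change was -0.79 (SE 0.33, edgeR adjusted p = 0.114), past no threshold, and 0.021 (adjusted p = 0.976) with the deposited totals.

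The balance of the members does not depend on library scaling, and both mature forms have the same length. miR-7b made up 0.108, 0.142 and 0.0984% of the family's reads with Ad-Yap WT, 0.123, 0.133 and 0.102% with Ad-Yap shRNA, and 0.101, 0.0528 and 0.0504% with Ad-GFP. The exact 95% binomial intervals, which cover counting error only, ran from 0.0461 to 0.191% in Ad-GFP replicate 1 and from 0.0756 to 0.243% in Ad-Yap WT replicate 2, and overlapped between all groups. The mean log2 ratio of miR-7b to miR-7a-5p reads was higher by 0.83 with Ad-Yap WT than with Ad-GFP and by 0.88 with Ad-Yap shRNA than with Ad-GFP, given without a test since both members were chosen on these comparisons. Ad-Yap WT differed from Ad-Yap shRNA by -0.047 (two-sided exact permutation p = 0.9, where 3 libraries against 3 cannot go below 0.1). At about 1 read per 1000 of miR-7a-5p, the share of miR-7b is small enough that reads of miR-7a-5p with base 10 misread could contribute to it, and this was not tested. Summing the members into 1 entry left the log2 fold changes at 1.36, 2.11 and -0.75 in the order Ad-Yap WT over Ad-GFP, Ad-Yap shRNA over Ad-GFP and Ad-Yap WT over Ad-Yap shRNA.

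**Figure D5:**
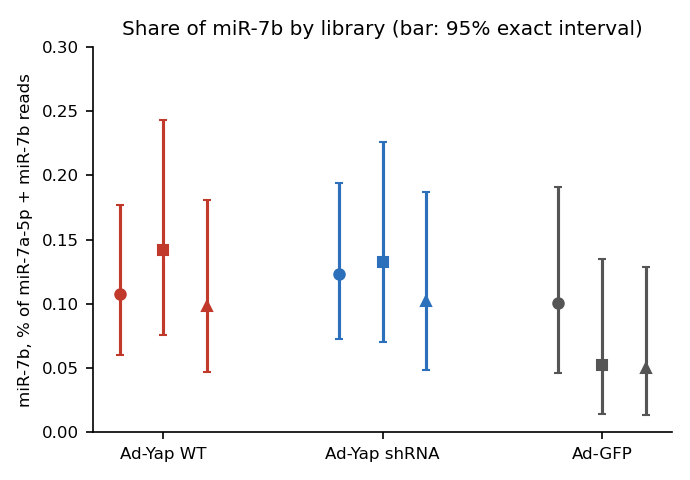
Share of miR-7b among the reads of miR-7a-5p and miR-7b in percent, by library, with exact 95% binomial intervals (circle, square and triangle for replicates 1, 2 and 3 of Ad-Yap WT, Ad-Yap shRNA and Ad-GFP). The shares lie between 0.0504 and 0.142%, and the intervals of the groups overlap.

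The opposite arm of the Mir7-1 hairpin was almost absent. miR-7a-1-3p, the partner strand of miR-7a-5p there, had 0 reads in each of the Ad-Yap WT and Ad-Yap shRNA libraries, and 1, 0 and 0 reads with Ad-GFP. In the Yap libraries miR-7a-5p had 9140 to 14621 reads. There 0 reads, taken as up to 3 counts, allows miR-7a-1-3p a share of up to 0.0205 to 0.0328% of the reads of both. The miR-7a-5p reads cannot be traced to Mir7-1 or the miR-7a-2 hairpin. These shares therefore set no limit on the partner strand within Mir7-1 alone. In Ad-GFP replicate 1 the share was 0.0112% (exact 95% interval 0.000284 to 0.0625%), and the same limit of 3 counts is 0.0396 and 0.0379% in replicates 2 and 3. The strand could not be tested for a change at this depth. The partner strand from the miR-7a-2 hairpin was not analysed here.

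Because miR-7 is known from neurons and endocrine cells, 11 other miRNAs enriched in such cells were read beside it. All list results are on the TMM scale, that is, relative to the other miRNAs. The list summed to 6397 to 7221 CPM with Ad-Yap WT, 6229 to 6804 CPM with Ad-Yap shRNA and 5073 to 5308 CPM with Ad-GFP. The neuronal miR-124-3p had 0 to 9 reads in any library, miR-153-3p 2 to 17, miR-219a-5p, of brain and oligodendrocytes, 1 to 13, and the endocrine miR-375-3p 8 to 24, beside 7568 to 14621 reads of miR-7a-5p. Of the 8 that passed the filter, 3 rose and 0 fell with Ad-Yap WT against Ad-GFP, with a median log2 fold change of 0.31, beside 0.030 over all tested miRNAs, of which 15.4% were called higher. With Ad-Yap shRNA 6 rose and 0 fell, with a median of 0.75 beside 0.039, where 24% of all were called higher. With the deposited totals the list's medians were -1.01 and -1.44, beside -1.26 and -2.15 over all. The most abundant member, miR-218a-5p, which lies in introns of the Slit genes, rose to 4990 ± 242 CPM with Ad-Yap WT (log2 fold change 0.42, edgeR adjusted p = 0.00599) and to 4574 ± 133 CPM with Ad-Yap shRNA (0.29, adjusted p = 0.0104), against 3738 ± 64.5 CPM with Ad-GFP (SD, n = 3 each). miR-138-5p, enriched in brain, rose by 1.00 in both comparisons (adjusted p = 0.00328 and 0.00136), and miR-129-5p by 0.86 and 0.93 (adjusted p = 0.0454 and 0.022). miR-128-3p, enriched in brain, was at -0.23 and -0.012 and passed in neither. miR-9a-3p, more abundant than miR-129-5p, had 35.31, 34.56 and 35.74 CPM with Ad-Yap WT and 66.41, 61.12 and 67.65 CPM with Ad-Yap shRNA. With Ad-GFP it had 44.84, 36.12 and 49.95 CPM. Between Ad-Yap WT and Ad-Yap shRNA 1 of the 8, miR-9a-3p, was called lower (-0.89, edgeR adjusted p = 0.00403), which is near the 14.3% of all miRNAs called lower there, while miR-138-5p stood at -0.00030.

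The hairpin of miR-671, whose 5p arm directs the cleavage of Cdr1as in human and mouse, belongs to the same circuit. Its only entry, rno-miR-671, lies in the later part of the hairpin sequence and is thus the partner of that arm. It had 2 to 26 reads per library and a mean of 6.52 ± 4.1 CPM with Ad-Yap WT, 5.43 ± 3.2 CPM with Ad-Yap shRNA and 2.91 ± 0.97 CPM with Ad-GFP (SD, n = 3 each). It passed in none of the comparisons (edgeR log2 fold changes 1.16, 0.95 and 0.21 with Ad-Yap WT over Ad-GFP, Ad-Yap shRNA over Ad-GFP and Ad-Yap WT over Ad-Yap shRNA, adjusted p = 0.196, 0.287 and 0.828). The table holds no circular RNA and no long RNA, so Cdr1as, Cyrano, Hnrnpk and Ddx17 could not be read.

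The helicases DDX5 and DDX17 are known in human and mouse cells to assist the processing of other miRNAs too, and 6 of these were read beside miR-7a-5p, all of which passed the filter. With Ad-Yap WT against Ad-GFP 1 rose and 2 fell, with a median log2 fold change of 0.11, beside 0.030 over all miRNAs, of which 15.4% were called higher and 9.67% lower. The rise was miR-21-5p, a miRNA of fibrosis and injury (0.69, edgeR adjusted p = 0.0201), and the falls were miR-143-3p of smooth muscle (-0.37, adjusted p = 0.01) and the fibroblast enriched miR-199a-3p (-0.43, adjusted p = 0.0238). With Ad-Yap shRNA 3 rose and 3 fell, with a median of 0.21 beside 0.039, where 24% of all were called higher and 17.8% lower. With the deposited totals the list's median was -1.20 with Ad-Yap WT, beside -1.26 over all miRNAs, and with Ad-Yap shRNA it also lay slightly above the -2.15 over all. miR-145-5p of smooth muscle (1.16, adjusted p = 0.00451), miR-21-5p (0.78) and the cell cycle regulator miR-16-5p (0.74) rose, while miR-199a-5p (-1.51), miR-199a-3p (-1.67) and miR-143-3p (-0.32) fell. Between Ad-Yap WT and Ad-Yap shRNA the list split as well, with 2 higher, 1 lower and 3 that did not pass, beside 14.2% of all miRNAs called higher and 14.3% called lower. The 3 fibroblast miRNAs (miR-199a-5p, miR-199a-3p and miR-214-3p) summed to 13149 to 13835 CPM with Ad-Yap WT, 5136 to 5985 CPM with Ad-Yap shRNA and 14147 to 16496 CPM with Ad-GFP. None of the 3 lay at 0. The endothelial list summed to 5002 to 5852 CPM with Ad-Yap WT, 6172 to 7429 CPM with Ad-Yap shRNA and 3581 to 4480 CPM with Ad-GFP, and the blood list to 244 to 541, 333 to 435 and 476 to 648 CPM in the same order. On the TMM scale the lowest level of the fibroblast miRNAs and the highest level of miR-7a-5p thus fell in the same group, Ad-Yap shRNA. In deposited RPM the mean of miR-7a-5p was lowest in that group, at 544, with the groups overlapping. Per cardiomyocyte miRNA read it was no higher there than with Ad-Yap WT beyond overlap. The part of the cell mixture in the miR-7a-5p values was not tested.

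Likeness to miR-7a-5p was measured as Pearson's r of log2(CPM + 1) over the 9 libraries, across 359 annotated miRNAs with at least 10 CPM. These libraries form 3 groups and share their scaling, so r describes the order of the groups and carries no p. The most alike were miR-154-3p (r = 0.985), of the imprinted Dlk1-Dio3 region, miR-19b-3p (0.980), of the miR-17-92 cluster, let-7f-5p (0.974), miR-96-5p (0.964), of the miR-183 cluster, and let-7i-5p (0.953). Their levels were, in CPM with Ad-Yap WT, Ad-Yap shRNA and Ad-GFP, 54.6, 80.9 and 27.7 for miR-154-3p and 580, 716 and 429 for miR-19b-3p. The corresponding log2 fold changes of miR-96-5p were 1.64 with Ad-Yap WT over Ad-GFP and 2.07 with Ad-Yap shRNA over Ad-GFP, next to 1.36 and 2.11 for miR-7a-5p. The least alike were miR-148a-3p (r = -0.975), miR-3068-5p (-0.971) and miR-339-3p (-0.969), of which miR-148a-3p stood at 215 ± 31.5 CPM with Ad-Yap WT, 134 ± 9.95 CPM with Ad-Yap shRNA and 339 ± 25.9 CPM with Ad-GFP (SD, n = 3 each).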

How the data were processed

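Per the labels' protocols, small RNA libraries (MGIEasy kit) were sequenced from 1 end on a BGI instrument. Bowtie2, DESeq2 and rn6 are named, without versions or roles, in the submitters' processing notes. The deposited table gives, per library, whole-number read counts per miRNA, not normalized, and RPM values, which the authors computed per 1e+06 reads of a library total larger than the miRNA sum. The total is the count divided by the RPM.

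All 579 miRNAs that passed filterByExpr (428 annotated, 151 predicted) were tested with edgeR 4.0.16 in R 4.3.3 (TMM, glmQLFit, glmQLFTest, 1 mean per group over 9 libraries, Benjamini-Hochberg adjustment over all tested miRNAs, threshold 0.05). SE is the log2 fold change over the square root of F. The fit was tested on simulated data. Replicates of a group differed far beyond sampling noise and were all kept. Alternatives used DESeq2 1.42.0, limma 3.58.1 and other scalings, filters and libraries. PCR reads are not independent molecules, so intervals and floors of 3 counts cover counting error only. Sequences are from RefSeq (GRCr8), and rn6 coordinates were not used.

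Named were the members, their other arms, the miRNAs nearest in fold change and most alike or unlike in pattern, and the most abundant of each list. The members and lists were chosen with earlier results of these data known. Scaling to the cardiomyocyte miRNAs, and leaving out libraries for the ratio of mean RPM, were added after the data were seen.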

Additional observations from a re-analysis of the deposited data

How the results depend on the processing

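With DESeq2, RLE or upper quartile factors, the stricter filter, fits of 2 groups, or predicted miRNAs left out, the members kept their direction in every comparison and, between the Yap groups, their side of the threshold; with at least 10 CPM in 3 libraries miR-7b was filtered out. The opposite arm miR-7a-1-3p gave no fit. In the order Ad-Yap WT over Ad-GFP, Ad-Yap shRNA over Ad-GFP, the log2 fold changes of miR-7a-5p were 1.04 and 1.51 with library size only, 1.20 and 1.88 with cyclic loess, 0.012 and -0.10 with the deposited totals, and 1.24 and 2.00 with no filter. Scaled to the cardiomyocyte miRNAs, miR-7a-5p stood at 1.15 and miR-7b at 1.90 with Ad-Yap shRNA. miR-7b was at 0.69 and 0.67 with the deposited totals, and at 2.26 with Ad-Yap shRNA and library size only. Ad-Yap WT over Ad-Yap shRNA reversed with the deposited totals (0.11 for miR-7a-5p, 0.021 for miR-7b) and with the cardiomyocyte miRNAs (0.10 and 0.048). Per miRNA read instead of per read of the library total, the log2 ratio of miR-7a-5p was 1.04 and 1.51. Library size only, the deposited totals and the cardiomyocyte miRNAs each rescale all miRNAs of a library alike, which by construction shifts the members. The cause of the shifts with cyclic loess and with no filter was not tested.

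Without 1 library, miR-7a-5p ran from 1.28 to 1.45, from 2.05 to 2.16 and, between the Yap groups, from -0.81 to -0.65 (edgeR adjusted p = 0.00353 to 0.00739). miR-7b ran from 1.81 to 2.52, from 2.64 to 3.29 and from -1.02 to -0.63. The log2 ratio of mean RPM of miR-7a-5p ran from -0.32 to 0.21 and from -0.31 to 2.2e-05, and the ratio of the members from 0.65 to 1.15, from 0.70 to 1.20 and from -0.20 to 0.062. Of all miRNAs, 145, 242 and 165 were called in the 3 comparisons. Without 1 library the counts ran from 71 to 148, 191 to 245 and 125 to 164; the first was 71 when Ad-Yap WT replicate 3 was left out, and 83, 96 and 96 when replicates 1, 2 and 3 of Ad-GFP were. They were 322 and 493 in the comparisons with Ad-GFP with the deposited totals (10 and 14 higher), and 90 with Ad-Yap WT and no filter. The split of 89 higher and 56 lower was 74 and 71 by upper quartile factors. On library size only it was 51 and 104, that of Ad-Yap shRNA was 66 and 221 (139 and 103 by TMM), and that between the Yap groups was 114 and 38 (82 and 83 by TMM). The deposited totals gave 110 and 8 between the Yap groups.

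The deviations of same-numbered replicates from their group means correlated with r from -0.341 to 0.342. Only replicate 1 of Ad-Yap WT and Ad-Yap shRNA was most like its own number (0.342, against at most 0.056 for another number). Whether same-numbered replicates share more than a number cannot be told from this. With a replicate block the log2 fold changes of miR-7a-5p were 1.36, 2.11 and -0.74 (edgeR adjusted p = 0.00938 for the last), and 132, 228 and 160 miRNAs were called. Depth limits miR-7b, at 4 to 18 reads per library, and the opposite arm.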
